A study of Mus musculus with 6 samples.

Results

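Cd36 and 8 further genes of fatty acid uptake and intracellular fatty acid binding were compared in liver between A/J-12SM and A/J mice. The genes are the scavenger receptor Cd36, the transport proteins Slc27a1, Slc27a2, Slc27a4 and Slc27a5, and the binding proteins Fabp1, Fabp2, Fabp4 and Fabp5. They were chosen by name, and all probe sets that the array annotation assigns to exactly 1 of them were taken, which gave 17 probe sets of 45037 for 9 genes of 18193. Each probe set reads transcripts through several short oligonucleotides. A/J-12SM mice are consomic: chromosome 12 came from SM/J and the rest of the genome from A/J, the recipient. All mice were male and had received a high-fat diet for 7 weeks, between 6 and 13 weeks of age as the study describes its mice. RNA of 3 livers was combined for each array, and there were 3 arrays for A/J-12SM and 3 for A/J. A replicate is thus a pool. The p-values from limma rest on the spread between pools, moderated towards a trend over all probe sets of like brightness. None of the 9 genes lies on chromosome 12, and by the construction of the consomic strain both groups should carry the A/J alleles of these genes.

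Long-chain fatty acids reach the hepatocyte bound to albumin or as products of lipoprotein breakdown. CD36 at the plasma membrane facilitates their entry, and the proteins of the SLC27 family both transport fatty acids and join them to coenzyme A. Inside the cell the small FABP proteins carry fatty acids through the cytosol, and FABP1 is the abundant member in hepatocytes. CD36 is scarce in hepatocytes of lean mice and increases in the liver of mice with steatosis, where it is a known target of the nuclear receptors PPARG, LXR and PXR.

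The array levels differed between strains before normalization, with trimmed mean signals of 171 to 186 in A/J-12SM and 201 to 213 in A/J, so the log2 signals were quantile-normalized. The correlation between arrays was 0.921 to 0.933 within a strain and 0.922 to 0.930 between strains. The actin probe sets at the 5′ and 3′ ends had a ratio of 0.423 in A/J-12SM replicate 3 and of 0.553 to 0.590 in the other 5 arrays. The replicate SD, as a median over probe sets, was 0.21 on the log2 scale at or above the median brightness and 0.86 below it. Of the 17 probe sets, 15 lay at or above the median. A probe set was called where the adjusted p over all probe sets was under 0.05. As a check of the tissue, hepatocyte markers were bright, with all 12 above the 40th percentile of brightness and none called between strains. By quantile normalization 6 of 12 had lower values (median -0.00), while 0 of 12 did with median centring (median 0.19) and 1 of 12 with trimmed-mean scaling (median 0.16). The arrays measured whole liver, so fewer cells of a type and less RNA per cell cannot be told apart.

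Cd36 was lower in A/J-12SM than in A/J liver by each of its 3 probe sets, and the strains did not overlap in any of them. The gene lies on chromosome 5 (17781690 to 17888959, GRCm38.p6). By the brightest probe set, the MAS5 signals as deposited were 872, 648 and 629 in A/J-12SM liver, against 2272, 1788 and 2508 in A/J liver. The highest A/J-12SM array therefore lay below the lowest A/J array. After normalization the log2 signals were 9.93, 9.40 and 9.41 in A/J-12SM (mean 9.58 ± 0.31, SD, n = 3), against 11.03, 10.76 and 11.20 in A/J (mean 10.99 ± 0.22, SD, n = 3). The gap between the nearest arrays of the strains was 0.83. Cd36 fell by 1.41 on the log2 scale (SE 0.16, 95% interval -1.77 to -1.06), a ratio of 0.375 (adjusted p = 0.0203 from limma).

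**Figure D1:**
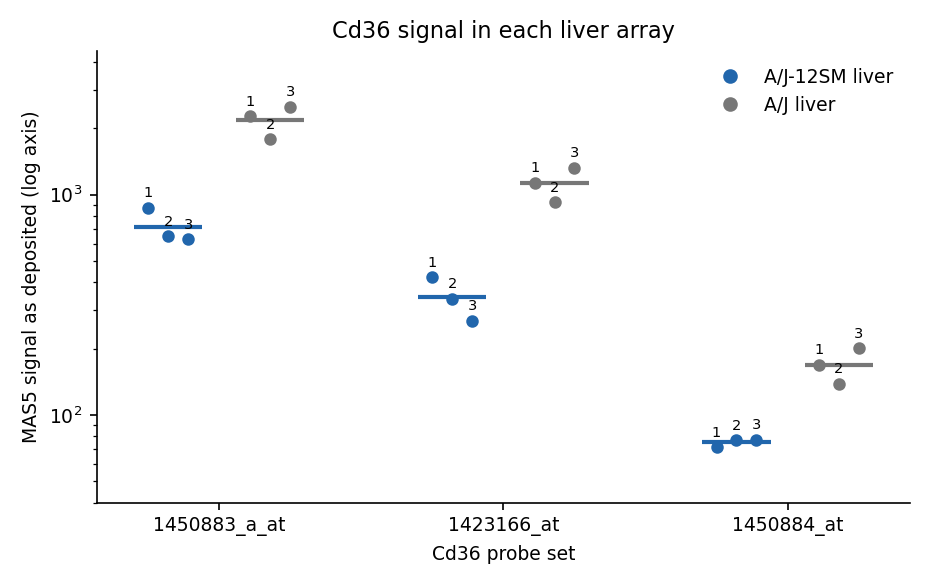
Deposited MAS5 signal (log y axis) of the 3 Cd36 probe sets (x axis) in A/J-12SM (blue, left) and A/J liver (grey, right); points are arrays with their replicate number and lines are means of 3 arrays. In each probe set all A/J-12SM points lie below all A/J points, with means of 716 against 2189 in the brightest.

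The second Cd36 probe set (1423166_at) had log2 signals of 8.88, 8.46 and 8.20 in A/J-12SM liver, against 10.00, 9.80 and 10.25 in A/J liver. It fell by 1.50 (SE 0.17, adjusted p = 0.0215 from limma). The third (1450884_at) had 6.36, 6.27 and 6.42 in A/J-12SM and 7.22, 7.00 and 7.57 in A/J liver. Its difference of -0.91 (SE 0.19, 95% interval -1.33 to -0.49) did not pass the threshold (adjusted p = 0.317 from limma). Within an array, the brightest probe set exceeded the third by 3.23 ± 0.31 in A/J-12SM and by 3.73 ± 0.09 in A/J liver (SD, n = 3 each), so the strain difference of the third was smaller by 0.50. For this contrast, 1 of 3 compared between the Cd36 probe sets, the exact two-sided permutation test gave p = 0.1, the smallest that 3 arrays against 3 allow. In A/J liver replicate 3 was highest and replicate 2 lowest in all 3 probe sets. In A/J-12SM liver replicate 1 was highest in the 2 brighter ones but not in the third. Of all 45037 probe sets, 25 (0.0555%) were called and 14 (0.0311%) were called lower. The exact two-sided permutation test over the arrays also gave p = 0.1 for each Cd36 probe set.

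The call of Cd36 depended on single arrays, while its direction did not. Without A/J-12SM replicate 1 the brightest probe set had -1.59 (adjusted p = 0.00737 from limma), and without any other single array it missed the threshold, with differences from -1.53 to -1.32. Leaving out A/J-12SM replicate 2 or 3 gave an adjusted p of 0.109 or 0.0525 from limma. For A/J replicates 1, 2 and 3 it was 0.115, 0.0639 and 0.132. Under median centring of the arrays the difference was -1.37 (adjusted p = 0.0876 from limma). CD36 is also made by macrophages and endothelial cells. In the list of Kupffer cell and macrophage markers, 15 of 16 lay lower in A/J-12SM liver (median -0.27). None was called, and 3 had an unadjusted p under 0.05 in limma. Their summed normalized signal was 7297 to 8979 in A/J-12SM and 8259 to 10315 in A/J liver, with overlap of the strains. Aif1, a macrophage protein, had -0.59 (SE 0.21). Marco, a scavenger receptor, had -0.66 (SE 0.42), and -0.35 as the mean of its probe sets. Gpnmb and Trem2, markers of lipid-laden macrophages, lay below the 40th percentile of brightness, and were named after their values were seen. Of 13 endothelial markers, 8 had higher values (median 0.05, summed signal 7508 to 7885 in A/J-12SM and 6868 to 7012 in A/J liver), among them Fcgr2b at 0.37 (SE 0.09), while Lyve1 had -0.45 (SE 0.21). The endothelial sums did not overlap between strains, and none of these markers was called. Bright markers weigh most in such a sum, among them Fcgr2b and Ptprb (0.30, SE 0.10). Ptprb was named after its value was seen. How often the sums of other gene lists lie apart was not taken, so this is not a result about endothelial cells. The part of these cells in the Cd36 result was not tested.

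The bases before the RefSeq start of Cd36 are shown because Cd36 carried the called differences, beside stretches of the Fabp1 and Slc27a2 promoters, whose genes were not called. The start in this table lies inside the annotated span of the gene. Nuclear receptors of the PPAR, LXR and PXR type bind repeats of the hexamer AGGTCA. Windows of 250 bases before to 50 after each start were searched on both strands, 8 windows for 6 of the 9 genes in RefSeq on GRCm38.p6. Capitals mark the matched letters, which read TGACCT where the hexamer lies on the other strand.
Cd36, chr5:17835897-17836146, minus strand: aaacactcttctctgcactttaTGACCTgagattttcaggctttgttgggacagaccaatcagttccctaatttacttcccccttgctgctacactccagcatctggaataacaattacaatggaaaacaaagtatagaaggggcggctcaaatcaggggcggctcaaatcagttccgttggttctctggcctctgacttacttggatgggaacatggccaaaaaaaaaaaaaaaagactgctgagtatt
Fabp1, chr6:71199799-71199848, plus strand: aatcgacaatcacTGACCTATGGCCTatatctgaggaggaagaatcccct
Slc27a2, chr2:126552789-126552838, plus strand: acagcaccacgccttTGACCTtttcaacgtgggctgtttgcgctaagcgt
The hexamer was present in 3 of the 8 windows and in 16.3% of all 32851 windows. The spaced repeat AGGTCANAGGTCA (a direct repeat with a spacer of 1 base, DR1) and the repeat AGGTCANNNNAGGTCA with a longer spacer (DR4) were in none of the 8, against 0.0396% and 0.0152% of all windows. A DR1 with a free letter in each hexamer (AGGNCANAGGNCA) was found in Fabp1, beginning 67 bases before the start, and in 0.381% of all windows. These letters overlap the hexamer there and are a description of the sequence, not of binding.

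None of the 4 transport proteins was called between strains. SLC27A2 (FATP2) and SLC27A5 (FATP5) are the forms best known from hepatocytes, and both also activate very long-chain or bile acids. Slc27a2 (chromosome 2) had log2 signals of 13.76, 13.80 and 13.86 in A/J-12SM liver, against 13.73, 13.70 and 13.76 in A/J liver. The difference was 0.08 (SE 0.08, 95% interval -0.10 to 0.26, adjusted p = 0.906 from limma), and the strains met at 13.76. Median centring of the arrays gave 0.22 for Slc27a2. Slc27a5 (chromosome 7) had 13.06, 12.96 and 12.96 in A/J-12SM and 12.95 to 13.08 in A/J liver, with overlap. Its difference was -0.01 (SE 0.08, 95% interval -0.20 to 0.17), and with arrays centred on their medians it was 0.14. The intervals of Slc27a2 and Slc27a5 extend to ratios of 0.930 to 1.20 and of 0.872 to 1.12.

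Slc27a1 (chromosome 8), the insulin-responsive form of muscle and fat, and Slc27a4 (chromosome 2), the main form of the intestine, differed by less than their replicate spread. Slc27a1 had 6.07, 6.62 and 6.38 in A/J-12SM and 6.36, 6.38 and 6.54 in A/J liver by its brighter probe set, a difference of -0.07 (SE 0.21). Its other probe set gave -0.14 (SE 0.31), and the arrays overlapped in both. Slc27a4 had 7.57, 7.40 and 7.41 in A/J-12SM, against 7.72, 7.17 and 7.72 in A/J liver. The difference of -0.08 (SE 0.17, 95% interval -0.47 to 0.31, adjusted p = 0.961 from limma) was smaller than the replicate SD of 0.32 in A/J liver.

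**Figure D2:**
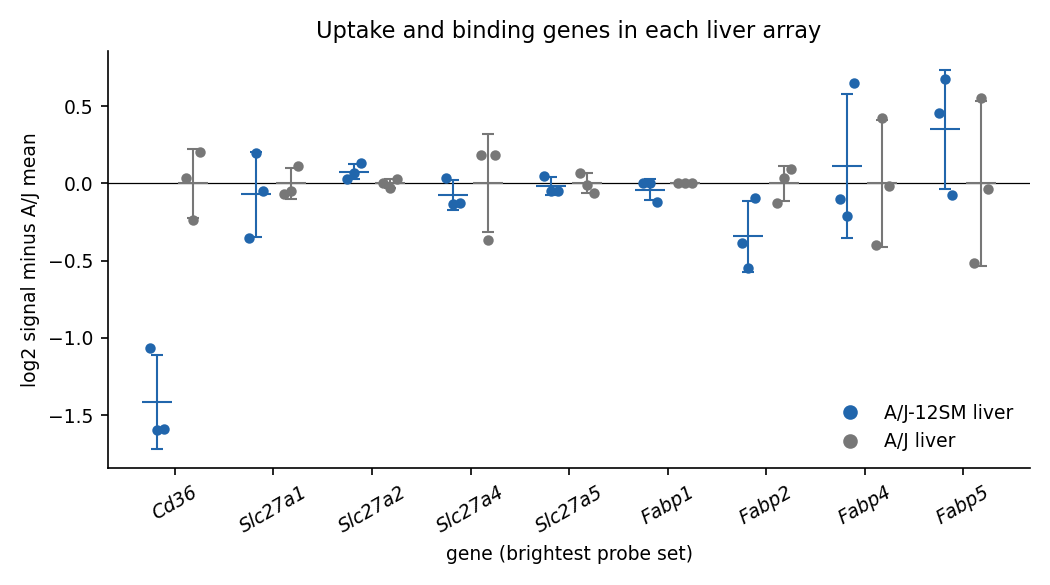
Normalized log2 signal minus the A/J mean (y axis) for each of the 9 genes by its brightest probe set (x axis) in A/J-12SM (blue, left) and A/J liver (grey, right); points are arrays, a horizontal mark shows the mean of 3 arrays and a bar its SD. Cd36 lies at -1.41 on average in A/J-12SM liver, and the means of the other 8 genes lie between -0.34 and 0.35.

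Among the binding proteins none was called, and by the brightest probe set Fabp2 had the most negative difference. FABP2, the intestinal form, lies on chromosome 3 and binds long-chain fatty acids in enterocytes. Its log2 signals were 11.98, 11.82 and 12.27 in A/J-12SM liver, against 12.24, 12.40 and 12.46 in A/J liver. A/J-12SM replicate 3 thus reached into the range of A/J by 0.03. The difference was -0.34 (SE 0.12, 95% interval -0.61 to -0.07), with an adjusted p of 0.728 from limma. The exact two-sided permutation test gave p = 0.2. In the deposited signals, without normalization, the strains did not overlap, with 3664, 3541 and 4643 in A/J-12SM and 5235, 5522 and 5894 in A/J liver. Fabp2 had an unadjusted p under 0.05, which 6.23% of all probe sets and 6.78% of all genes reached. Of 7 measured markers of intestinal epithelium, Vil1 and Lct, its defining brush border genes, were below the 40th percentile of brightness, with 5 of 7 there in all. Vil1 and Lct were chosen after their values were seen. Apoa4, an apolipoprotein that mouse liver also makes, was called, at -0.96 (SE 0.10) with an adjusted p of 0.0141 from limma. It lost the call without A/J-12SM replicate 2 or without any 1 A/J array, with adjusted p of 0.0598 to 0.125 from limma, and under median centring (0.248). With 1 prior variance its adjusted p from limma was 0.438, and by the methods' t-test, which also lost the call, it was 0.535.

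FABP1 (chromosome 6) is the liver form. Its brightest probe set ranked first of all 45037 in 5 arrays and as number 3 in A/J-12SM replicate 3. Quantile normalization gives equal ranks equal values, so 5 arrays shared a log2 signal of 14.62 and the sixth had 14.50. The deposited signals were 24892, 26868 and 23171 in A/J-12SM, against 26200, 25232 and 24458 in A/J liver, with overlap. Shared ranks leave no difference between arrays, so the other probe set is given too. It had 14.50, 14.25 and 14.19 in A/J-12SM and 14.15, 14.15 and 14.22 in A/J liver, a difference of 0.14 (SE 0.10, 95% interval -0.09 to 0.37). This probe set also lay near the top, at ranks 3 to 23, and had 0.35 with arrays centred on their medians. The brightest probe set gave -0.04 (SE 0.09), and 0.22 with arrays centred on their medians.

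FABP4, the form of adipocytes and macrophages, and FABP5, the epidermal form, lie on chromosome 3. The brightest Fabp4 probe set had 8.11, 8.00 and 8.86 in A/J-12SM liver, against 7.81, 8.63 and 8.19 in A/J liver. The difference was 0.12 (SE 0.25, 95% interval -0.45 to 0.68), and without A/J-12SM replicate 3 it was -0.15. Of the other Fabp4 probe sets, 2 lay below the median brightness. The dimmest (1424155_at) had 4.71, 4.47 and 4.85 in A/J-12SM and 3.97, 3.53 and 3.85 in A/J liver, without overlap, but its difference of 0.90 (SE 0.45, adjusted p = 0.824 from limma) did not pass. The remaining Fabp4 probe sets gave 0.04 (SE 0.36) and -0.52 (SE 0.98). The last of these had 1.29 in A/J-12SM replicate 2 and 4.16 to 5.53 elsewhere.

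Adiponectin (Adipoq), the adipocyte-defining hormone, was dim, at percentile 27.6 of brightness. It had log2 signals of 2.74, 3.09 and 6.08 in A/J-12SM liver, against 3.05, 5.00 and 2.40 in A/J liver. Adipoq and the brightest Fabp4 probe set were both highest in A/J-12SM replicate 3 and second highest in A/J replicate 2. The adipocyte markers at or above the median brightness ran otherwise. Lipe, hormone-sensitive lipase, had 7.38, 6.95 and 6.77 in A/J-12SM and 7.26, 7.48 and 7.44 in A/J liver, a difference of -0.36 (SE 0.18), and of 0.01 as the mean of its probe sets. Slc2a4, the insulin-responsive glucose transporter, had 6.35, 6.55 and 5.98 in A/J-12SM and 6.70, 6.94 and 6.22 in A/J liver, a difference of -0.33 (SE 0.25). Both were lowest in A/J-12SM replicate 3. Adipoq was chosen after its values were seen, and it was the 1 marker of the list with a higher value. Of 7 adipocyte markers measured, 5 lay below the 40th percentile of brightness and 6 had lower values in A/J-12SM liver, with a summed signal of 254 to 303, against 331 to 397 in A/J and no overlap. Lipe and Slc2a4, the brightest of these markers, made up most of the sum in each array. For this sum too, the share of other gene lists without overlap was not taken. None of the 7 was called. The part of adipose cells in the Fabp4 signal was not tested.

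Fabp5 varied more between arrays of a strain than between strains. Its brighter probe set had 9.80, 10.02 and 9.27 in A/J-12SM liver, against 8.83, 9.90 and 9.31 in A/J liver. The difference of 0.35 (SE 0.26, 95% interval -0.23 to 0.93) was smaller than the SD of 0.54 between the A/J arrays. The other probe set had 7.90, 8.29 and 7.01 in A/J-12SM and 6.76, 8.15 and 7.74 in A/J liver, a difference of 0.18 (SE 0.38). Both probe sets were highest in A/J-12SM replicate 2 and A/J replicate 2 and low in A/J replicate 1, and their correlation over the 6 arrays was 0.93. That of the brightest Fabp4 probe set with its 3 others ranged from 0.12 to 0.73 over the same arrays.

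**Figure D3:**
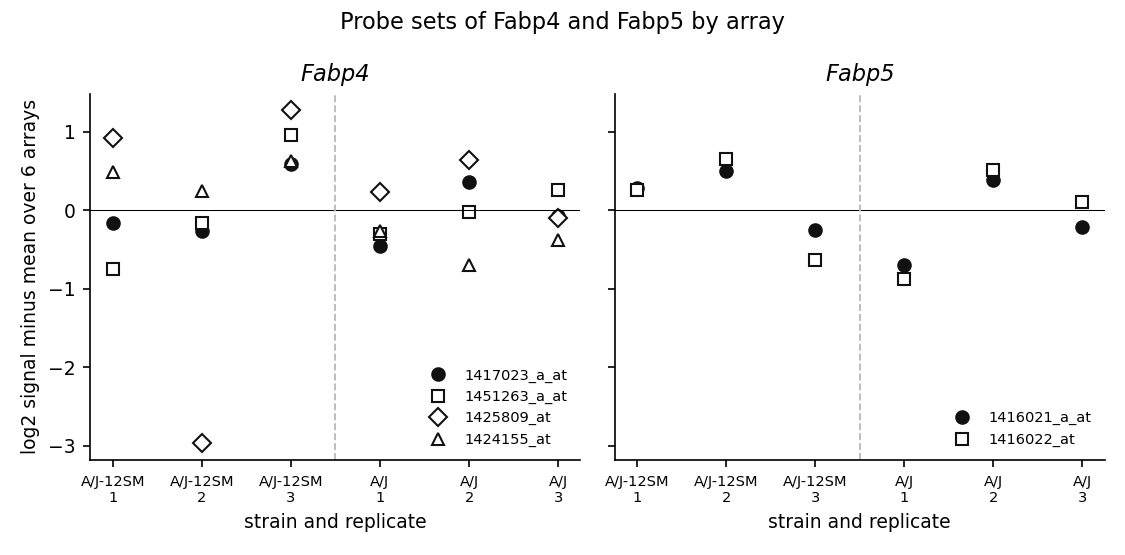
Normalized log2 signal minus the mean of 6 arrays (y axis) of the 4 Fabp4 (left) and 2 Fabp5 probe sets (right) in each A/J-12SM and A/J array (x axis); the filled symbol is the brightest probe set of the gene. The Fabp5 probe sets follow a similar course but lie on opposite sides of the mean in A/J replicate 3. In A/J-12SM replicate 2, 1 Fabp4 probe set drops.

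Over the 9 genes, 6 had lower and 3 had higher values in A/J-12SM liver by the brightest probe set, where 50.9% of all genes had lower values. The median difference was -0.04, against -0.01 over all 18193 genes. Cd36 was the 1 gene called, where 0.066% of all genes were called and 0.0385% were called lower. Of the 17 probe sets, 10 had lower and 7 higher values, and in 4 the strains did not overlap, 3 lower (Cd36) and 1 higher (Fabp4). Of all probe sets, 5.83% lay apart in the lower and 6.13% in the higher direction.

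**Figure D4:**
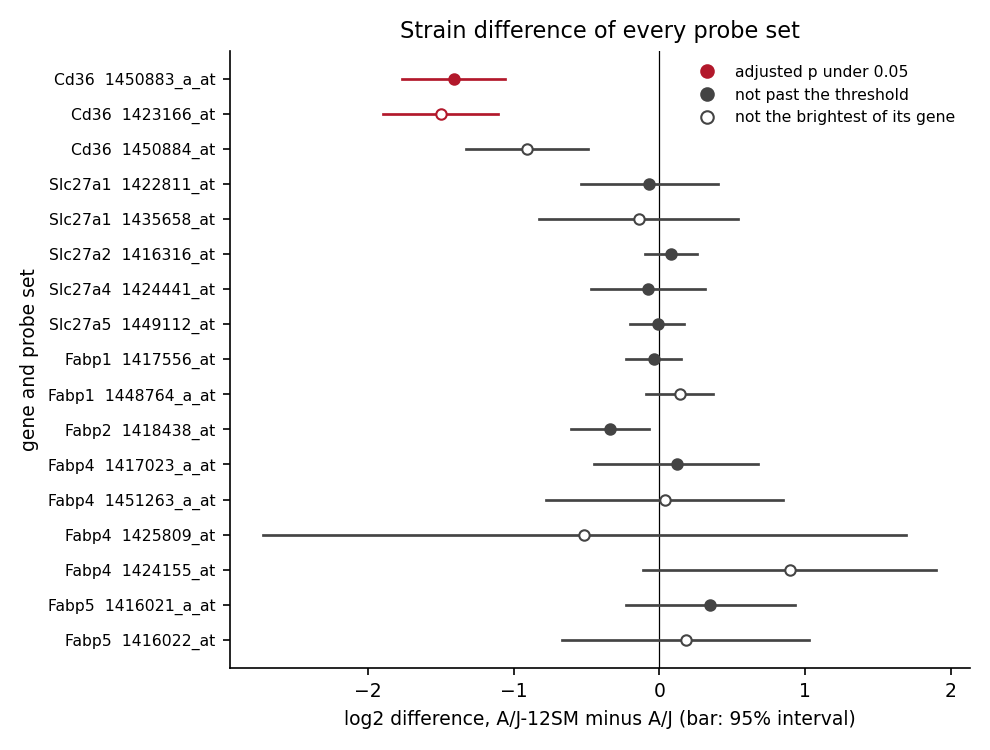
Difference in log2 signal, A/J-12SM minus A/J (x axis), of the 17 probe sets of the 9 genes (y axis); bars are 95% intervals from limma with 3 arrays per strain, filled points are the brightest probe set of a gene and red marks an adjusted p under 0.05. The intervals of the 3 Cd36 probe sets and of Fabp2 exclude 0, and the widest interval is that of a dim Fabp4 probe set, -2.72 to 1.69.

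Other genes of uptake, binding and lipoprotein lipid delivery did not pass the test. Of 21 listed, 18 were measured by a probe set of their own, 10 with higher and 8 with lower values in A/J-12SM liver (median 0.04). None was called by limma or by the methods' t-test after adjustment, and 1 had an unadjusted p under 0.05 in limma. Mfsd2a, a lysophospholipid carrier, had 8.56 ± 0.15 in A/J-12SM and 8.97 ± 0.37 in A/J liver (SD, n = 3 each), a difference of -0.42 (SE 0.17, adjusted p = 0.792 from limma). Cav1, the coat protein of caveolae, had 0.23 (SE 0.20). Vldlr, a lipoprotein receptor, had -0.16 (SE 0.41), and 0.17 as the mean of its probe sets. The relatives of CD36, Scarb1 and Scarb2, had -0.06 (SE 0.15) and 0.08 (SE 0.08), and Lpl, lipoprotein lipase, had 0.05 (SE 0.18). Of 9 measured genes that activate fatty acids, 4 had higher and 5 lower values (median -0.04), with none called by either test and 1 below an unadjusted 0.05 in limma. Acss2, which activates acetate, had -0.39 (SE 0.14, adjusted p = 0.739 from limma), and Acsl5, a long-chain acyl-CoA synthetase, had -0.23 (SE 0.11). Acsm5, of the medium-chain synthetases, had 0.14 (SE 0.10). Scarb1, Scarb2 and Lpl were chosen after their values were seen.

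Of 25 listed regulators of Cd36 and Fabp genes 23 were measured, 13 with higher and 10 with lower values (median 0.02). None was called by either test, and 4 higher and 1 lower had an unadjusted p under 0.05 in limma. Pparg, which induces Cd36 in fat-laden liver, had log2 signals of 5.33, 4.90 and 5.03 in A/J-12SM liver, against 6.30, 5.70 and 6.01 in A/J liver. The strains did not overlap, but this probe set was close to the median brightness, and its difference of -0.92 (SE 0.29) did not pass (adjusted p = 0.653 from limma). Rxrb, a partner of PPAR and LXR, had 0.73 (SE 0.25, adjusted p = 0.708 from limma) and Foxa2, a liver transcription factor, 0.39 (SE 0.17). Other receptors known to act on these genes showed smaller values, with 0.01 (SE 0.09) for Ppara, 0.06 (SE 0.11) for Nr1h3, which encodes LXRα, and 0.11 (SE 0.13) for Nr1i2, which encodes PXR. Ppara, Nr1h3 and Nr1i2 were chosen after their values were seen.

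Of 15 measured genes that PPARG is known to induce in fat-laden liver, 11 had lower and 4 higher values in A/J-12SM liver (median -0.16). Fitm1, which directs triglyceride into lipid droplets, was called. It had 7.53, 8.06 and 7.16 in A/J-12SM, against 9.24, 8.96 and 9.10 in A/J liver, without overlap. Fitm1 fell by 1.51 on the log2 scale (SE 0.20) at an adjusted p of 0.0469 from limma. Of the 6 fits that left out 1 array, only that without A/J-12SM replicate 2 kept the call (adjusted p = 0.0147 from limma), and the others gave 0.0525 to 0.266. Mogat1, which makes diacylglycerol, had -0.86 (SE 0.15, adjusted p = 0.206 from limma), and Plin2, a lipid droplet coat protein, -0.42 (SE 0.14). Lpl had 0.05 and Plin5 0.12 (SE 0.15). Cidea, at percentile 28.6 of brightness, had the largest difference of the list, 1.73 (SE 0.77), towards higher values. G0s2 had -0.72 (SE 0.15, adjusted p = 0.317 from limma). In 6 of the 15 genes, all of them lower, the strains did not overlap, as in 2242 of all 18193 genes in either direction. Before adjustment, 4 lower genes and 1 higher gene of this list had a p under 0.05 in limma. With A/J-12SM replicate 2 left out the list had a median of -0.03 and 8 of 15 genes lower. Lpl and Vldlr also stand in the uptake list. Of 21 measured genes that PPARA is known to induce, 14 had lower and 7 higher values (median -0.03). None was called by either test, and 3 lower had an unadjusted p under 0.05 in limma. With arrays centred on their medians, 8 of 21 lay lower (median 0.07). Vnn1, a pantetheinase, had 10.72, 11.12 and 10.96 in A/J-12SM, against 11.64, 11.96 and 11.78 in A/J liver. Its difference of -0.86 (SE 0.12) had an adjusted p of 0.0575 from limma. Pex11a, a peroxisomal membrane protein, had -0.68 (SE 0.11, adjusted p = 0.102 from limma), and Fgf21, a secreted hepatokine, -0.41 (SE 0.25). Cyp4a14, a fatty acid hydroxylase, had 0.08 (SE 0.08), and Cpt1a, of mitochondrial fatty acid import, -0.25 (SE 0.08). Mogat1, Plin2, Plin5, Cidea, G0s2, Cyp4a14 and Cpt1a were chosen after their values were seen.

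**Figure D5:**
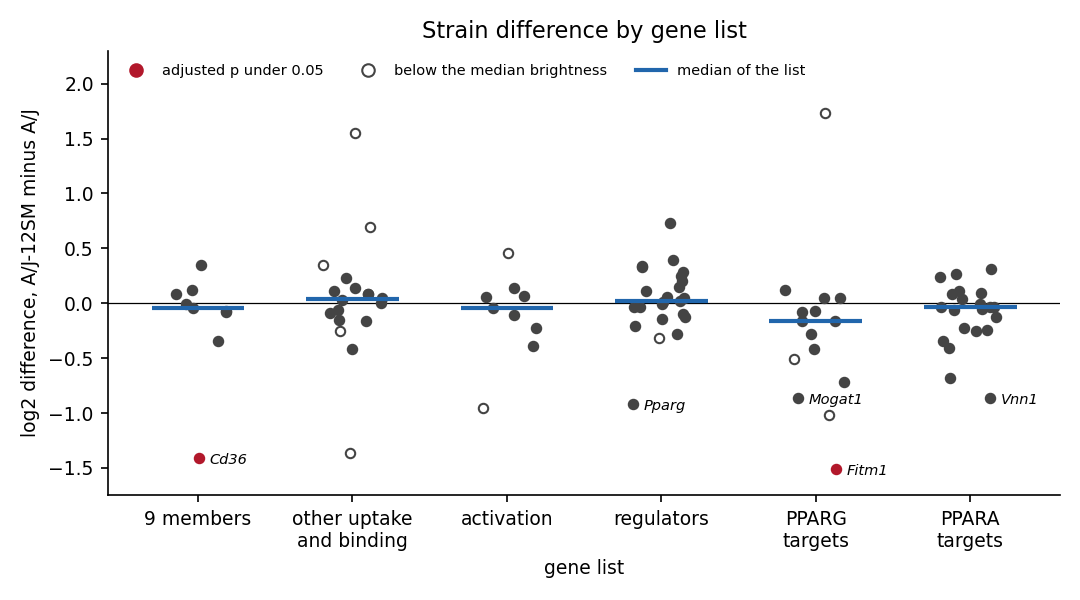
Difference in log2 signal, A/J-12SM minus A/J (y axis), of each gene by its brightest probe set in 6 gene lists (x axis); red marks an adjusted p under 0.05 in limma, an open symbol a probe set dimmer than the median, and a blue line the median of the list. Cd36 (-1.41) and Fitm1 (-1.51) are the called genes, and Pparg lies at -0.92.

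Among 11033 genes outside these 9 with a brightest probe set at or above the median, the 6 whose log2 signal followed that of Cd36 most closely over the 6 arrays were Arpc1a, Tcf7l2, Dhrs7, Perp, Apoa4 and Ermp1, with Pearson r of 0.980 to 0.991. The arrays form 2 strains, so such an r holds the strain difference as well as the spread within a strain. After the strain means were subtracted the r with Cd36 was 0.73 to 0.90, over the same 6 arrays by which these genes were picked. The closest, Arpc1a, a subunit of an actin-nucleating complex, had 8.55, 8.41 and 8.47 in A/J-12SM, against 8.75, 8.73 and 8.78 in A/J liver, a difference of -0.27 (SE 0.10). Dhrs7, a short-chain dehydrogenase on chromosome 12, had 9.19, 8.98 and 9.09 in A/J-12SM, against 9.74, 9.69 and 9.87 in A/J liver. Its difference was -0.68 (SE 0.10, adjusted p = 0.0643 from limma), and 0.11 as the mean of all its probe sets. It lies on the substituted chromosome, so a sequence difference under its probes cannot be told apart from one in mRNA. Apoa4 was the 1 called gene of the 6. Of the other 8 genes compared here, Fabp2 had the highest r with Cd36 by the brightest probe set (0.71) and Slc27a2 the lowest (-0.76).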

How the data were processed

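Liver RNA of 6 pools was measured on 1-colour Affymetrix arrays. The authors deposited intensity values on a linear scale, 1 per probe set and array. The submitters' processing notes name MAS5, without a version, and its scaling is not stated. The 64 control probe sets were removed, log2 signals were quantile-normalized because array levels differed between strains, and 45037 probe sets were fitted in limma 3.58.1 (R 4.3.3) with a prior variance that follows brightness. Adjustment was by Benjamini-Hochberg across the 45037, at 0.05. Names came from the platform annotation, updated by gene ID through RefSeq on GRCm38.p6 (34741 of 34945 probe sets with 1 gene matched, 932 had several genes, 9160 none). The brightest probe set stands for a gene. Members and lists were chosen with earlier results of these data known. The text names all members, the called genes of a list or else its 3 largest differences at or above the median brightness, the 2 largest differences of a marker list at that brightness (fewer where it holds fewer) and the 6 genes most like Cd36. Genes chosen after their values were seen are named as such. The small number of arrays limits the precision. The fit was tested on simulated arrays with 200 changed probe sets among 45037. At or above the median brightness it recovered 11.1% of log2 changes of 0.5 and 58.3% of changes of 1. For changes of 1.5 and 2 it recovered 79.7% and 86.8%. These shares hold for the simulated arrays with that number of changes, while the real arrays gave 25 called probe sets. The share recovered on the real arrays was not tested. Alternatives were the deposited values, median centring, scaling to 1 trimmed mean, adding an offset of 9.2 (the 20th percentile of signals), removing probe sets under the 40th brightness percentile, 1 prior variance, the methods' t-test, a replicate block, the mean of a gene's probe sets and leaving out each array. The study's methods name a t-test between these strains but state no test for the liver arrays. Here that t-test was run on the normalized log2 signals with the same adjustment. Same-numbered arrays were checked for pairing. Plots used matplotlib 3.10.9 (Python 3.11.15), and exact tests scipy 1.17.1.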

Additional observations from a re-analysis of the deposited data

How the results depend on the processing

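The count of 25 probe sets called (11 higher, 14 lower) became 47 on the values as deposited (9 higher, 38 lower), where all probe sets shifted by a median of -0.22, and 1 with 1 prior variance or by the methods' t-test, which had 2630 probe sets under 0.05 before adjustment. Median centring gave 11 higher and 8 lower. Leaving out 1 array gave 6 to 23. The brightest Cd36 probe set ranged from -1.59 to -1.32 without single arrays. It lost its call with median centring (-1.37) and 1 prior variance (-1.41, adjusted p = 0.438 from limma). By the methods' t-test, which uses only the spread of the probe set itself, the call was also lost (-1.41, adjusted p = 0.615). The second lost it under the same 3 settings and without A/J-12SM replicate 2 or any 1 A/J array. Called member genes were 1, but 0 under those settings and 0 to 1 without single arrays. Member probe sets without overlap were 7 with median centring or trimmed-mean scaling, against 4. The share of all probe sets without overlap was taken only for the quantile-normalized fit, so the 7 are not a result about these genes. Called PPARG targets were 0 with the offset, 1 prior variance, the t-test, the replicate block and the mean of all probe sets, and 0 to 1 without single arrays. Called PPARA targets were 2 as deposited, 1 with dim probe sets left out and 1 with the block. The cause of these changes was not tested.

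Signs turned only for differences that were not called. As deposited, Slc27a2 had -0.02, Fabp4 -0.10 and -0.21 by its 2 brighter probe sets, and the second Fabp5 probe set -0.06. Median centring and trimmed-mean scaling gave 0.14 and 0.11 for Slc27a5 and 0.22 and 0.19 for the brightest Fabp1 probe set, which had 0.05 as the mean of all probe sets. Without single arrays, the Slc27a1 probe sets ranged from -0.20 to 0.07 and from -0.29 to 0.08, Slc27a4 from -0.26 to 0.01, Slc27a5 from -0.05 to 0.02 and Fabp1 from -0.06 to 0.00. Fabp4 ranged from -0.15 to 0.33, from -0.43 to 0.42 and from -1.29 to 0.84 by 3 probe sets, and the second Fabp5 probe set from -0.21 to 0.54. Same-numbered arrays of the strains had correlations of -0.057, 0.089 and 0.156 between their deviations, so the numbers were not taken as pairs. The replicate block gave 28 called probe sets, and Cd36 kept -1.41 (adjusted p = 0.0137 from limma). The replicate SD limits what can be detected, most of all below the median brightness.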

Other observations

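Of 9 markers of stellate cells, 8 had higher values in A/J-12SM liver (median 0.03), but 5 of 9 lay lower without A/J-12SM replicate 3 (median -0.08), and by the mean of all probe sets 4 of 9 did. Gfap had 0.68 (SE 0.35), and 0.13 as the mean of its probe sets, and Lum, a matrix protein, had 0.64 (SE 0.23). None of the 9 was called by limma, and 2 had an unadjusted p under 0.05. Of 12 hepatocyte markers none was called, 2 had an unadjusted p under 0.05 in limma, and Pck1, the gluconeogenic enzyme, had 12.24 ± 0.34 in A/J-12SM and 11.43 ± 0.22 in A/J liver (SD, n = 3 each), a difference of 0.81 (SE 0.17, adjusted p = 0.338 from limma). Cps1, of the urea cycle, had 0.28 (SE 0.09). Of 6 lymphocyte markers 4 had higher values (median 0.09), but 4 of 6 lay lower without A/J-12SM replicate 3 (median -0.29). The median also turned without A/J-12SM replicate 1 (-0.05) and without A/J replicate 3 (-0.14). Ptprc, the common leukocyte antigen, had 0.00 (SE 0.22). Of 6 muscle markers 4 had lower values (median -0.26), but 2 of 6 did without A/J replicate 3 (median 0.15). Acta1 had -0.62 (SE 0.29) and Ckm, muscle creatine kinase, had 0.17 (SE 0.38). None of the lymphocyte and muscle markers was called by limma or had an unadjusted p under 0.05. In both lists, 4 of 6 lay below the 40th percentile of brightness.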
